A study of Danio rerio with 36 samples.

Results

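The step from 2 day to 5 day in wild-type zebrafish was described across all genes that passed a count filter. Of the 30490 genes in the deposited gene table, 21458 (70.4%) had enough counts to be tested in the 6 libraries of this step, 3 made from wild-type embryos at 2 day and 3 made from wild-type larvae at 5 day. The study holds 36 RNA-seq libraries, 3 for each of 12 groups, from whole wild-type and kctd15 mutant zebrafish at 6 stages from 1 somite to 14 day. The 3 mutant libraries at 2 day and the 3 at 5 day are used at the end, and the labels name neither the allele nor the strain. Animals were staged at 28.5 °C and larvae were fed under the facility's rules, per the labels. Whether the 5 day larvae had been fed, the hour of collection and the number of animals in each library are not given there. The labels call the replicates biological, and p-values measure the spread among these libraries.

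Between these stages the zebrafish leaves its egg coat and becomes a larva that sees, swims and digests. Hatching is driven by proteases that the cells of the hatching gland release onto the egg coat, after which the gland is lost. The exocrine pancreas makes digestive enzymes in acinar cells. The liver makes bile, detoxifying enzymes and plasma proteins, and the gut epithelium builds a brush border that splits and absorbs nutrients while yolk still feeds the animal. In the retina, cones and rods grow outer segments, where opsins catch light and a cascade of transducin, phosphodiesterase and ion channels turns it into an electrical signal.

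Library totals were 6768044 to 7765995 estimated counts at 2 day and 6165297 to 8033360 at 5 day, and the 50 most counted genes held 18.88 to 20.92% of them. Across genes, log2 CPM correlated at 0.9696 to 0.9809 between replicates and at 0.7596 to 0.7945 between the stages. CPM, the usual unit of counts scaled to the library total, was computed after TMM scaling of the 18 wild-type libraries, which does not correct for gene length, so that CPM of different genes do not rank their transcript levels. Values after ± are SD for CPM (n = 3) and SE for log2 fold changes, and an interval given as a counting interval covers counting error only. "Rose" and "fell" are used only of genes with an adjusted p under 0.05 in edgeR's quasi-likelihood test over the 21458 genes. By that rule 6613 genes (30.8%) were higher at 5 day and 6470 (30.2%) were lower, with a median log2 fold change over all genes of 0.00416. A change of at least 2-fold was called upward for 4231 genes (19.7%) and downward for 2403 (11.2%). At 8-fold or more 946 were higher and 57 lower. The groups did not overlap for 7266 genes higher and 6878 lower at 5 day, together 65.9% of those tested. These percentages are the background for every count below, and counts of list members describe the lists without testing them. A gene with next to no counts at 1 stage passed the count filter through the other stage alone. Its direction was thereby fixed, both in the list counts and in the background. In RNA from whole animals, fewer cells of a type and less RNA per cell cannot be told apart.

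Transcripts of 2 hatching enzymes nearly disappeared between 2 day and 5 day. The gene he1a, which encodes an astacin metalloprotease that digests the egg coat, stood at 539.5, 927 and 596 CPM at 2 day and 0, 0.106 and 0.272 CPM at 5 day. All 3 of the 2 day libraries were high, with 16622 counts together against 3 at 5 day, a level 5628-fold (95% counting interval 1926 to 27294) higher at 2 day (adjusted p = 6.32e-10). Its close copy he1b went from 217, 310.0 and 206 CPM at 2 day to 0, 0 and 0.272 CPM at 5 day, a level 2995-fold (95% counting interval 829 to 24737) higher at 2 day (adjusted p = 1.01e-09). Reads of such near-identical genes may be divided between them by the estimation, so the level of each alone is uncertain. The cathepsin gene ctslb, a hatching gland marker in zebrafish, stood at 77.3, 134 and 118 CPM at 2 day and 0, 0 and 0.272 CPM at 5 day, a level 1345-fold (95% counting interval 372 to 11111) higher at 2 day (adjusted p = 5.9e-09). The groups did not overlap for any of these 3 genes.

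Other genes of the hatching gland list did not share this size of change. The other hatching enzyme gene, he2, was low at both stages, with 2.94, 1.44 and 3.83 CPM at 2 day and 4.18, 3.93 and 2.85 CPM at 5 day (log2 fold change 0.401 ± 0.35, adjusted p = 0.341), and the groups overlapped. The second cathepsin gene listed, ctsl.1, rose from 4.598, 3.24 and 2.04 CPM at 2 day to 300.1, 197 and 252 CPM at 5 day (6.21 ± 0.25). Regulators and secretory genes changed by smaller amounts. The zinc finger factor prdm1a, which acts in the hatching gland and in other cell types, fell from 33.4 to 16.5 CPM (-1.04 ± 0.15). The gene agr2, a protein disulfide isomerase of secretory cells, fell from 70.8 to 48.3 CPM (-0.58 ± 0.13). Over the whole list, 14 of 15 matched genes were tested: 3 rose and 8 fell (backgrounds 30.8% and 30.2%), 1 and 5 of them by 2-fold or more (19.7% and 11.2%), with a median log2 fold change of -0.50. Without 2 day replicate 1, 2 or 3 or 5 day replicate 1, 2 members rose by 2-fold or more. The list takes in genes that other tissues also use, and agr2 and prdm1a stand in other lists here as well. So does ctsl.1, which is also in the swim bladder and yolk list.

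Genes of the digestive enzymes of the exocrine pancreas went from near 0 to high levels. The trypsin gene try stood at 3.704, 6.12 and 5.74 CPM at 2 day and 3103, 2511 and 2846 CPM at 5 day, with the groups far apart (log2 fold change 9.05 ± 0.22, adjusted p = 8.58e-11). The trypsin-like gene prss59.1 held 3 counts in the 2 day libraries together and stood at 2255, 1889.9 and 1997 CPM at 5 day. Its neighbour in name prss59.2, with which it may share reads, held 10 counts at 2 day and stood at 3548, 3217 and 3411 CPM at 5 day (12.91 ± 0.26). The same pattern, almost nothing in every 2 day library and a high level in every 5 day library, held for the chymotrypsins. The chymotrypsinogen gene ctrb1 went from 0.511, 0.48 and 1.28 CPM at 2 day to 2844, 2449 and 2839 CPM at 5 day (11.76 ± 0.26). The chymotrypsin-like gene ctrl, with 2 counts at 2 day, went to 1158, 954 and 958 CPM, a level 11984-fold (95% counting interval 3317 to 98960.4) higher.

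Every protease gene tested in the list, 20 of 20, rose by 2-fold or more (background 19.7%). Several, such as prss59.1, ctrl and ela3l, had next to no counts at 2 day. They passed the count filter through the 5 day libraries alone, which fixed their direction. Among the elastase-type genes, ela2 rose from 0.463 ± 0.272 to 1029 ± 272 CPM (11.06 ± 0.33), ela2l from 0.5 ± 0.0179 to 1107 ± 234 CPM (11.04 ± 0.27) and ela3l from 0.208 ± 0.0697 to 829 ± 120.4 CPM (11.83 ± 0.26). The carboxypeptidases cut amino acids from the ends of peptides that trypsin and elastase leave. Of their genes cpa5 stood at 3.45, 5.397 and 2.81 CPM at 2 day and 2449, 1931 and 2294 CPM at 5 day (9.12 ± 0.24), and cpa1, cpa4 and cpb1 rose as well, by 9.71, 7.48 and 9.097 on the log2 scale. The smallest rise in this group was that of zgc:112302, from 15.4 ± 4.15 to 103 ± 8.505 CPM (2.71 ± 0.17).

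Enzymes for other nutrients rose with the proteases. The amylase gene amy2a, which splits starch, held 3 counts at 2 day and stood at 936, 739 and 848 CPM at 5 day, a level 6535-fold (95% counting interval 2236 to 31691) higher. Its relative zgc:92137 (current symbol amy2al2), with 0 counts at 2 day, reached 613, 547 and 746 CPM, at least 4935-fold higher when 3 counts are allowed over the 2 day group. The bile salt-stimulated lipase gene cel.1 went from 2 counts to 413, 372 and 369 CPM and its copy cel.2 from 3 counts to 174, 168 and 189 CPM. The secreted phospholipase gene pla2g1b rose from 0.255 ± 0.255 to 56.4 ± 18.5 CPM (7.71 ± 0.45). Genes of the secretory machinery of the acinar cell were part of this change. The zymogen granule gene sycn.2 (a syncollin) had 0 counts at 2 day and 117, 95.9 and 114 CPM at 5 day, at least 849-fold higher on the same allowance. The pancreatic protein disulfide isomerase gene pdia2 rose from 2.37 ± 1.08 to 141 ± 19.7 CPM (5.86 ± 0.24).

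The transcription factors of the same organ fell or were not called. The acinar cell factor ptf1a fell from 5.62, 8.39 and 5.105 CPM at 2 day to 1.53, 1.28 and 2.99 CPM at 5 day, with no overlap between the groups (-1.77 ± 0.34, adjusted p = 0.000748). The gene gata6, an endoderm factor, fell from 17.02 to 12.3 CPM (-0.49 ± 0.17); it no longer passed when 2 day replicate 1 or 2 or 5 day replicate 1 or 2 was left out (adjusted p 0.0569 to 0.117). The nuclear receptor gene nr5a2 had means of 8.97 to 6.81 CPM (-0.41 ± 0.21, adjusted p = 0.106). Over the whole list, 31 of 36 matched genes were tested. Of these, 28 rose, all by 2-fold or more (background 19.7%), and 2 fell, 1 of them by 2-fold or more (background 11.2%). Members with next to no counts at 2 day, such as amy2a, cel.1 and sycn.2, passed the filter through 5 day alone and could only be called higher. The median log2 fold change was 10.27, or 9.715 with the 5 genes at 0 counts placed at their lower bounds. The matched genes held 0.006441 to 0.008496% of all counts in the 2 day libraries and 2.611 to 3.232% in the 5 day libraries.

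**Figure D1:**
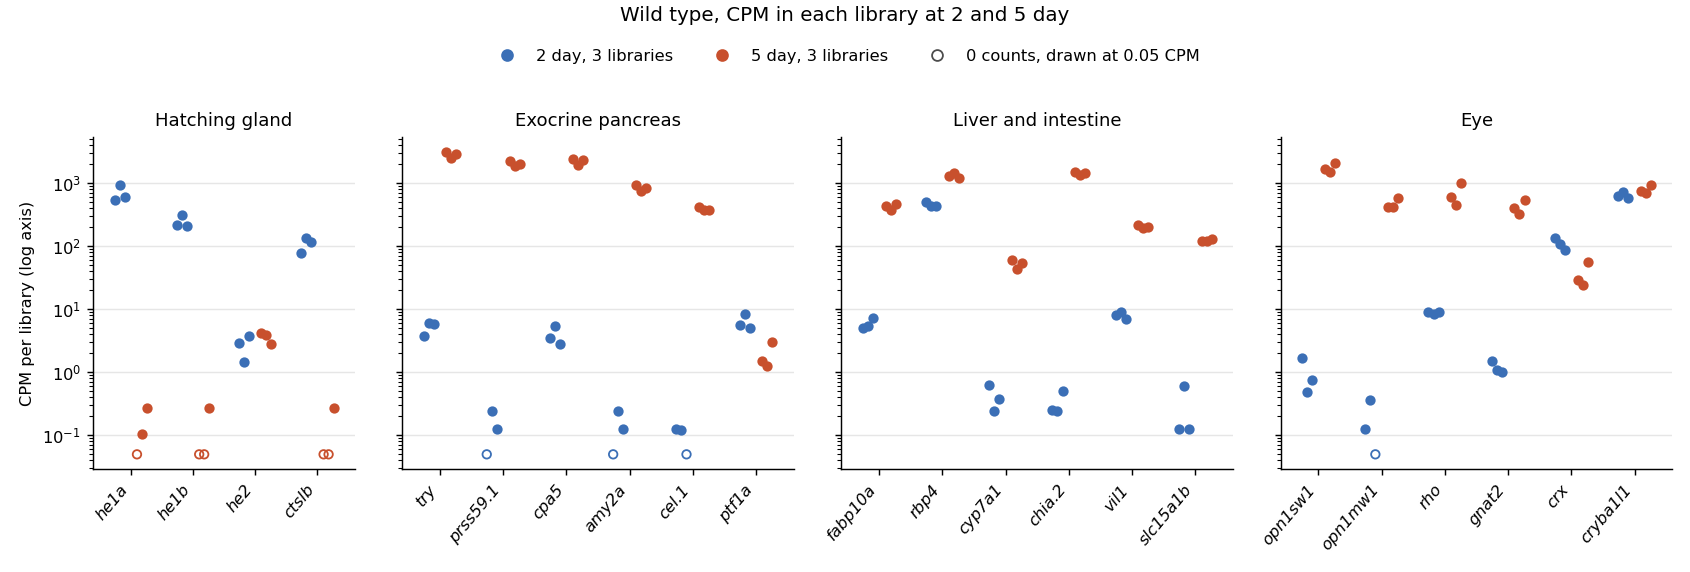
CPM on a log axis in each of the 3 libraries at 2 day (blue) and the 3 at 5 day (red), for genes of the hatching gland, exocrine pancreas, liver and intestine, and eye; open circles are libraries with 0 counts, drawn at 0.05 CPM. The groups do not overlap for any gene drawn except he2 and cryba1l1.

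The endocrine pancreas, whose islet cells release hormones into the blood, changed by much smaller amounts. The insulin gene ins stood at 7.79, 10.19 and 13.1 CPM at 2 day and 17.7, 17.6 and 22.7 CPM at 5 day, higher in every 5 day library (0.87 ± 0.19, adjusted p = 0.00199). The glucagon gene gcga rose from 5.04 ± 0.644 to 8.93 ± 1.96 CPM (0.803 ± 0.22) and the somatostatin gene sst1.1 from 1.88 ± 0.307 to 4.43 ± 1.27 CPM (1.19 ± 0.32). The prohormone convertase gene pcsk1, which cuts hormone precursors and is also used in the brain, rose from 7.48 ± 0.773 to 23.9 ± 5.76 CPM (1.64 ± 0.19). The developmental factors pax6b, isl1, neurod1 and nkx2.2a, all of them also expressed in the nervous system, fell by 1.37, 1.16, 1.29 and 1.58 on the log2 scale. Of 18 tested members 7 rose and 4 fell (backgrounds 30.8% and 30.2%), with a median log2 fold change of 0.29.

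Among liver genes, more of the metabolic enzymes than of the plasma proteins rose by 2-fold or more. Of 46 metabolic enzyme genes tested, 36 rose and 2 fell by 2-fold or more (median 2.098), against 16 and 0 of 48 plasma protein genes (median 0.73); the difference between the lists was not tested. The gene cyp7a1, for the rate-limiting enzyme of bile acid synthesis, went from 0.639, 0.24 and 0.383 CPM at 2 day to 60.3, 43.6 and 54.2 CPM at 5 day (6.899 ± 0.26, adjusted p = 1.98e-09). The detoxifying cytochrome gene cyp3a65, used in liver and gut, stood at 1.405, 0.839 and 2.42 CPM at 2 day and 637, 517 and 613 CPM at 5 day, with no overlap (8.53 ± 0.25). Genes of bile transport and conjugation shared this direction. The bile salt export pump gene abcb11b rose from 1.86 ± 0.679 to 24.3 ± 1.19 CPM (3.66 ± 0.22), and the bilirubin-conjugating gene ugt1a1 from 0.505 ± 0.678 to 72.96 ± 4.69 CPM (7.12 ± 0.36). Of 16 bile and detoxification genes 14 rose, all by 2-fold or more, and 1 fell. The genes cyp7a1, cyp3a65 and ugt1a1 passed the count filter through 5 day alone, which fixed their direction.

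Enzymes of amino acid and sugar metabolism rose in the same way, 15 of 19 and 10 of 11 of them. The tyrosine-degrading gene hpdb rose from 11.5 ± 2.91 to 169 ± 14.4 CPM (3.86 ± 0.18) and tat, earlier in the same pathway, from 5.36 ± 0.554 to 121 ± 45.5 CPM (4.47 ± 0.27). The tryptophan-degrading gene tdo2a went from 0.57 ± 0.545 to 66.8 ± 3.71 CPM (6.78 ± 0.28). The gene pck1, which commits carbon to new glucose, was uneven at 2 day and higher in all of the 5 day libraries, with 50.1, 35.9 and 13.4 CPM at 2 day and 479, 668 and 478 CPM at 5 day (4.01 ± 0.37, adjusted p = 2.76e-06). Only 2 genes of this list fell. The betaine-homocysteine methyltransferase gene bhmt went from 2123, 2792 and 1324 CPM at 2 day to 532, 934 and 803 CPM at 5 day (-1.49 ± 0.26, adjusted p = 0.00039), and the bile salt uptake gene slc10a1 fell from 7.72 ± 1.33 to 2.91 ± 0.543 CPM (-1.44 ± 0.24).

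The plasma protein genes differed widely in the size of their change. Of 48 tested, 34 rose, 2 fell and 12 were not called (backgrounds 30.8% and 30.2%). Among those not called were tfa, with means of 1289 and 1379 CPM (0.07 ± 0.13, adjusted p = 0.666), and serpina1, with 276 and 277 CPM (-0.02 ± 0.14, adjusted p = 0.899). The genes ttr and ahsg1 passed the count filter through 5 day alone, which fixed their direction. The thyroid hormone carrier ttr went from 0.383, 0.36 and 0.128 CPM at 2 day to 34.7, 46.7 and 41.7 CPM at 5 day (7.04 ± 0.28, adjusted p = 2.54e-09). The liver fatty acid-binding protein gene fabp10a, whose product acts inside liver cells rather than in plasma, rose too. It went from 5.11, 5.52 and 7.27 CPM at 2 day to 439.7, 375 and 467 CPM at 5 day (6.13 ± 0.17). The heme carrier hpx rose from 1.08 ± 0.275 to 37.5 ± 13.1 CPM (5.08 ± 0.33), the vitamin D carrier gc from 12.9 ± 1.56 to 166 ± 21.2 CPM (3.66 ± 0.15) and the fetuin gene ahsg1 from 0.288 ± 0.178 to 27.9 ± 4.87 CPM (6.48 ± 0.31). The retinol carrier rbp4 rose from 456 ± 34.96 to 1315 ± 110.0 CPM (1.5 ± 0.13) and the fetuin gene fetub from 405 ± 96.9 to 1087 ± 23.9 CPM (1.396 ± 0.16).

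Clotting and complement genes stayed closer to their 2 day levels. Of 14 clotting genes 8 rose and 1 fell, 3 of the rises by 2-fold or more, among them plg, the precursor of the clot-dissolving enzyme plasmin, with means of 94.1 to 196 CPM (1.03 ± 0.13). The gene that fell was vtnb, a vitronectin, with means of 82.5 to 56.8 CPM (-0.56 ± 0.16). Of 13 complement genes 9 rose and 1 fell, again 3 by 2-fold or more. The central complement gene c3a.2 rose from 64 ± 19.1 to 279.5 ± 35.5 CPM (2.097 ± 0.19).

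Intestinal genes rose together where they serve the brush border and nutrient uptake. Of 13 brush border enzyme genes 11 rose, all by 2-fold or more, among them the aminopeptidase gene anpepb, at 1.405, 0.839 and 2.04 CPM at 2 day and 309, 321 and 241 CPM at 5 day (7.64 ± 0.25, adjusted p = 5.7e-10). The 5 day libraries were less even for the lactase gene lct, with 27.4, 62.6 and 14.3 CPM against a 2 day mean of 0.506 CPM (6.07 ± 0.68). An exception was the alkaline phosphatase gene alpi.1, which fell from 12.7 to 7.39 CPM (-0.81 ± 0.17).

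All 16 nutrient transport genes rose, 15 of them by 2-fold or more. The transporter genes slc15a1b, slc5a1, slc6a19a.2, slc10a2 and npc1l1 had few counts at 2 day, as had cdhr2, chia.1 and chia.2. They passed the count filter through the 5 day libraries alone, which fixed their direction. The peptide transporter slc15a1b stood at 0.128, 0.6 and 0.128 CPM at 2 day and 120.3, 122 and 132 CPM at 5 day (8.64 ± 0.26), with every 5 day library far above every 2 day library. The glucose transporter slc5a1 rose from 0.658 ± 0.371 to 65.8 ± 0.877 CPM (6.57 ± 0.22) and the neutral amino acid transporter slc6a19a.2 from 0.753 ± 0.148 to 118 ± 0.313 CPM (7.24 ± 0.18). The ileal bile acid transporter slc10a2 rose from 0.253 ± 0.223 to 14.1 ± 0.719 CPM (5.702 ± 0.34) and the cholesterol transporter npc1l1 from 0.836 ± 0.101 to 44.5 ± 6.18 CPM (5.68 ± 0.21). Structural genes of the microvillus moved with them: vil1, which bundles its actin core, rose from 8.06 ± 0.993 to 204 ± 11.4 CPM (4.63 ± 0.14), and cdhr2, which links microvilli at their tips, from 0.29 ± 0.141 to 45.8 ± 5.02 CPM (7.19 ± 0.25). Chitin-splitting enzymes were near 0 at 2 day in the case of chia.2, which stood at 0.255, 0.24 and 0.51 CPM at 2 day and 1507, 1361 and 1449.8 CPM at 5 day (11.98 ± 0.23, adjusted p = 4.96e-11), and of chia.1, at 0, 0.839 and 0.51 CPM at 2 day and 383, 263 and 252 CPM at 5 day (9.28 ± 0.38).

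Fat-handling genes were divided, and several of them are also used by the yolk cell and liver. Of 18 tested, 7 rose and 2 fell by 2-fold or more. The bile acid-binding gene fabp6 had 1 count at 2 day and 162, 129.5 and 143 CPM at 5 day, a level 3379.7-fold (95% counting interval 606 to 133528) higher. The fatty acid-binding gene fabp2 rose from 65.7 ± 10.7 to 489 ± 25.8 CPM (2.87 ± 0.14), having stood at 549 CPM at 1 somite and 447 CPM at 25 hpf (hours after fertilisation). The triglyceride-forming genes mogat2 and dgat2 rose, with means of 0.548 to 21.5 and 18.3 to 97.6 CPM. Of 11 apolipoprotein genes in this group 2 rose, 2 fell and 7 were not called. The genes that rose were apoa4b.2 (1.55 ± 0.13) and apoa4b.3 (2.65 ± 0.19). The gene apoa1a fell from 4065, 4536 and 3108 CPM at 2 day to 997, 1880.4 and 1819.5 CPM at 5 day (-1.35 ± 0.22), and apoba fell from 233, 266 and 408 CPM at 2 day to 120.4, 123 and 117 CPM at 5 day (-1.36 ± 0.18), with no overlap for either of these. The gut factors cdx1b and hnf1ba were not called, with means of 14.3 to 17.1 and 21.9 to 24.3 CPM (adjusted p = 0.202 and 0.374), while hnf4a rose from 17.7 to 31.3 CPM (0.79 ± 0.15). Over the whole intestine list of 68 tested genes, 51 rose and 5 fell, 45 and 2 by 2-fold or more, with a median of 2.06. Members such as anpepb, lct, slc15a1b and fabp6 passed the count filter through 5 day alone and could only be called higher.

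**Figure D2:**
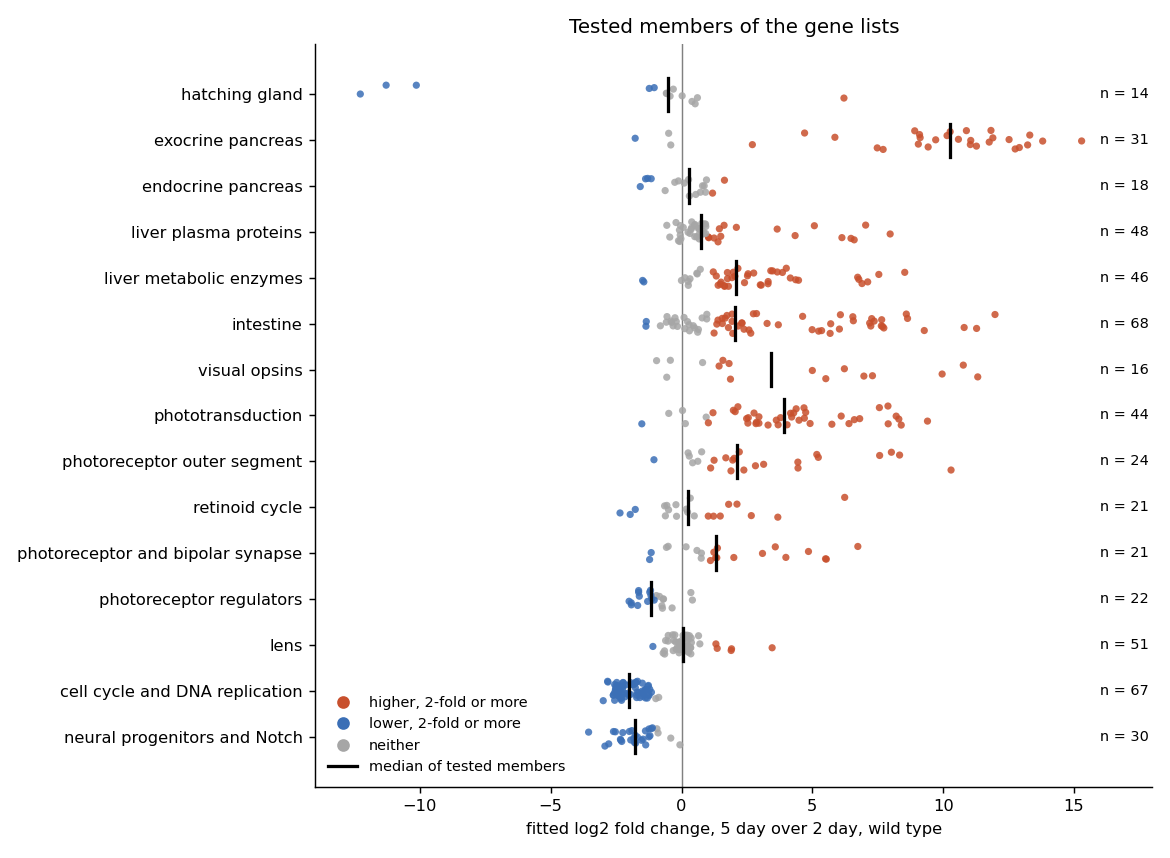
Fitted log2 fold change (x axis) of each tested member of 15 gene lists, red for genes called higher and blue for genes called lower by 2-fold or more, grey for the rest, with the list median as a black bar; fitted values of genes with 0 to 3 counts in a group depend on the prior count. The exocrine pancreas median lies at 10.27 and that of cell cycle genes at -2.02.

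The visual pigments of the cones appeared in this interval. The ultraviolet cone opsin opn1sw1 stood at 1.66, 0.48 and 0.766 CPM at 2 day and 1680.3, 1489 and 2049 CPM at 5 day, all 3 of the 5 day libraries far above the 2 day ones (10.77 ± 0.29, adjusted p = 1.68e-10). The blue cone opsin opn1sw2 went from 0.383, 0.24 and 0.128 CPM at 2 day to 255, 203 and 355 CPM at 5 day (9.96 ± 0.33). The green cone opsin opn1mw1 went from 0.128, 0.36 and 0 CPM at 2 day to 419, 423 and 586 CPM at 5 day (11.32 ± 0.33) and the red cone opsin opn1lw2 from 3.83, 1.44 and 1.66 CPM at 2 day to 319, 276 and 523 CPM at 5 day (7.299 ± 0.35). Replicate 3 was the highest of the 5 day libraries for each of these 4 genes. The tandem copy opn1mw2 reached 7.38, 3.93 and 8.56 CPM from 3 counts in all and opn1lw1 reached 16.1, 19.1 and 18.5 CPM from 3 counts. The further green copies opn1mw3 and opn1mw4 did not pass the filter. Copies of 1 opsin type are close in sequence and may exchange estimated counts. The rod opsin rho was already measurable at 2 day, with 9.196, 8.27 and 9.19 CPM at 2 day and 598, 454 and 994 CPM at 5 day (6.23 ± 0.28, adjusted p = 9.77e-09).

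Opsins outside the cones and rods changed by smaller amounts. The melanopsins, which sense light in neurons outside the image-forming photoreceptors, were higher at 5 day for opn4.1, opn4b and opn4xb, with means of 7.5 to 27.02, 1.38 to 4.21 and 1.75 to 4.83 CPM. The retinal G protein-coupled receptor gene rgra rose from 6.68 to 25.1 CPM (1.87 ± 0.18), whereas rgrb fell from 37.2 to 25.7 CPM (-0.56 ± 0.14). The pineal opsin exorh was at 6.64, 5.88 and 6.25 CPM at 2 day and 3.898, 5.101 and 5.17 CPM at 5 day (-0.43 ± 0.21, adjusted p = 0.0995). In all, 6 of 6 tested cone opsins, 2 of 2 rod opsins and 4 of 8 other opsins rose by 2-fold or more, and the median of the 16 was 3.44. The cone opsins opn1sw1, opn1mw1, opn1mw2, opn1lw1 and opn1sw2 had few counts at 2 day. They passed the count filter through the 5 day libraries alone, which fixed their direction.

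The cascade behind the opsins rose with them. Of cone transducin, the subunit gene gnat2 went from 1.53, 1.08 and 1.02 CPM at 2 day to 407, 323 and 537 CPM at 5 day (8.398 ± 0.26), gnb3b rose from 0.505 ± 0.263 to 356 ± 54.01 CPM (9.402 ± 0.25) and gngt2b from 1.08 ± 0.647 to 331 ± 22.7 CPM (8.205 ± 0.25). The cone phosphodiesterase gene pde6c, whose product breaks down cyclic GMP, stood at 1.28, 1.08 and 1.404 CPM at 2 day and 232, 183 and 319 CPM at 5 day (7.56 ± 0.26), and its inhibitory partner pde6h rose from 0.961 ± 0.165 to 315 ± 69.6 CPM (8.31 ± 0.24). Of the genes that shut the response off, the cone arrestin gene arr3a rose from 8.46 ± 1.999 to 464 ± 78.6 CPM (5.75 ± 0.20) and the opsin kinase gene grk7a from 0.538 ± 0.356 to 135 ± 31.05 CPM (7.89 ± 0.30). The rod counterparts rose as well: the transducin gene gnat1 from 3.01 ± 0.934 to 80.001 ± 16.7 CPM (4.695 ± 0.22), the phosphodiesterase gene pde6a from 1.38 ± 0.792 to 17.5 ± 2.97 CPM (3.62 ± 0.29) and the rod arrestin saga from 10.3 ± 2.04 to 81.7 ± 10.96 CPM (2.96 ± 0.16). The median log2 fold change was 6.61 over 14 cone cascade genes and 3.62 over 15 rod cascade genes, a difference that was not tested. Calcium sensors followed, with guca1c, an activator of guanylate cyclase, at 3 counts at 2 day and 33.5, 34.6 and 34.3 CPM at 5 day, and the recoverin gene rcvrn3 at 5.75, 6.12 and 5.998 CPM at 2 day and 401, 379 and 476 CPM at 5 day (6.103 ± 0.15).

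Of the 44 phototransduction genes tested, 40 rose, 39 of them by 2-fold or more, and 2 fell. Several that rose, such as gnat2, gnb3b, pde6c, pde6h, grk7a and guca1c, had few counts at 2 day. They passed the count filter through the 5 day libraries alone, which fixed their direction. The one that fell by 2-fold or more was gnb3a, a paralog of the cone subunit gnb3b, from 109, 62.4 and 75.4 CPM at 2 day to 25.9, 27.4 and 34.7 CPM at 5 day, with no overlap (-1.52 ± 0.19, adjusted p = 3.92e-05). The genes of this list held 0.05687 to 0.07219% of all counts at 2 day and 0.4643, 0.414 and 0.5474% in the 5 day libraries 1 to 3. Replicate 3 was again the highest, and its part in these results was not tested beyond leaving it out: without it, the phototransduction genes higher and lower by 2-fold or more still numbered 39 and 1.

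Structural parts of the photoreceptor moved in the same direction. The gene prph2a, whose protein shapes the rim of outer segment discs, stood at 0.128, 0.36 and 0.51 CPM at 2 day and 108, 97.02 and 140.4 CPM at 5 day (8.34 ± 0.27), and its paralog prph2b rose from 0.508 ± 0.342 to 101 ± 26.8 CPM (7.57 ± 0.33). The matrix gene impg2a, of the space around the outer segments, had 2 counts at 2 day and 26.2, 22.7 and 29.8 CPM at 5 day. Of 24 outer segment genes 20 rose, 18 by 2-fold or more, and 1 fell, with a median of 2.11. The genes prph2a, prph2b and impg2a passed the count filter through 5 day alone, which fixed their direction.

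The output synapse of photoreceptors and their bipolar cell partners was mixed. Of 21 synaptic genes 15 rose and 4 fell, 13 and 2 by 2-fold or more, with a median of 1.31. The ribbon synapse complexin gene cplx4a rose from 3.98 ± 1.97 to 64.5 ± 5.05 CPM (3.99 ± 0.23), the vesicular glutamate transporter slc17a7a from 2.8 ± 0.901 to 24.6 ± 5.48 CPM (3.095 ± 0.24) and the bipolar cell gene nyx from 0.293 ± 0.0787 to 14.6 ± 4.29 CPM (5.53 ± 0.36). The bipolar cell G protein subunit gng13b fell from 71.2 ± 16.5 to 31.3 ± 6.801 CPM (-1.22 ± 0.18).

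Among genes that recycle the chromophore, some rose and others fell. The retinoid carrier gene irbp (current symbol rbp3), of the space between photoreceptors and pigment epithelium, stood at 4.09, 3.598 and 3.57 CPM at 2 day and 258, 264 and 348 CPM at 5 day (6.24 ± 0.18, adjusted p = 2.43e-10). The retinol-binding gene rbp4l rose from 22.5 ± 4.59 to 294 ± 13.9 CPM (3.68 ± 0.16), and the carotene-cleaving gene bco1 from 14.5 ± 2.897 to 93.7 ± 13.7 CPM (2.67 ± 0.17). The isomerase gene of the pigment epithelium, rpe65a, rose from 24.4 ± 4.25 to 50.5 ± 4.502 CPM (1.02 ± 0.15), while its paralog rpe65b fell from 24.1 ± 4.36 to 7.25 ± 1.096 CPM (-1.77 ± 0.18). The retinol acyltransferase gene lrata fell from 9.43 ± 0.733 to 1.85 ± 0.445 CPM (-2.35 ± 0.24) and lratb from 9.26 ± 0.539 to 2.39 ± 0.344 CPM (-1.96 ± 0.22). Of 21 tested, 8 rose and 6 fell (38.1% and 28.57%, beside backgrounds of 30.8% and 30.2%), and the median was 0.23. By 2-fold or more 8 rose and 3 fell (backgrounds 19.7% and 11.2%).

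While genes of photoreceptor function rose, most transcription factors of photoreceptors and bipolar cells fell. The cone and rod factor crx stood at 136, 109 and 87.9 CPM at 2 day and 29.4, 24.3 and 56.4 CPM at 5 day, with no overlap (-1.64 ± 0.26, adjusted p = 0.000203). Its relatives otx2 and otx5 fell, from 77.8 ± 13.2 to 21.04 ± 5.47 CPM (-1.92 ± 0.18) and from 44.1 ± 10.17 to 20.6 ± 6.41 CPM (-1.14 ± 0.21). The factor neurod1, which acts in photoreceptor differentiation, fell from 138, 109 and 106 CPM at 2 day to 42.2, 41.7 and 63.6 CPM at 5 day (-1.29 ± 0.17). All 3 of the 5 day libraries were below the 2 day ones for these genes, with replicate 3 the highest of the 5 day libraries for crx and neurod1.

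The rod factor nr2e3 fell from 21.3 ± 5.09 to 6.85 ± 2.102 CPM (-1.68 ± 0.23), and the rod factor nrl was at 2.68, 2.52 and 2.55 CPM at 2 day and 1.11, 0.744 and 3.13 CPM at 5 day (-0.701 ± 0.45, adjusted p = 0.198); without 5 day replicate 3, the one high library, its change was -1.52 (adjusted p = 0.0081). The bipolar cell factor vsx1 had the largest fitted fall of the 22 regulators, from 103, 76.4 and 81.7 CPM at 2 day to 23.2, 16.05 and 27.5 CPM at 5 day (-2.003 ± 0.18, adjusted p = 2.69e-06). The cone subtype factors tbx2b and thrb fell by less than 2-fold (-0.69 ± 0.13 and -0.73 ± 0.22). Of 22 regulators tested, 18 fell, 13 of them by 2-fold or more, against backgrounds of 30.2% and 11.2%. The one that rose was mef2cb, with means of 35.4 to 48.4 CPM (0.42 ± 0.15), and it no longer passed without 2 day replicate 2 or 3 or 5 day replicate 1 or 3 (adjusted p 0.0742 to 0.135). The median of the 22 was -1.15. Several of these factors are also expressed in brain or in retinal progenitors.

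**Figure D3:**
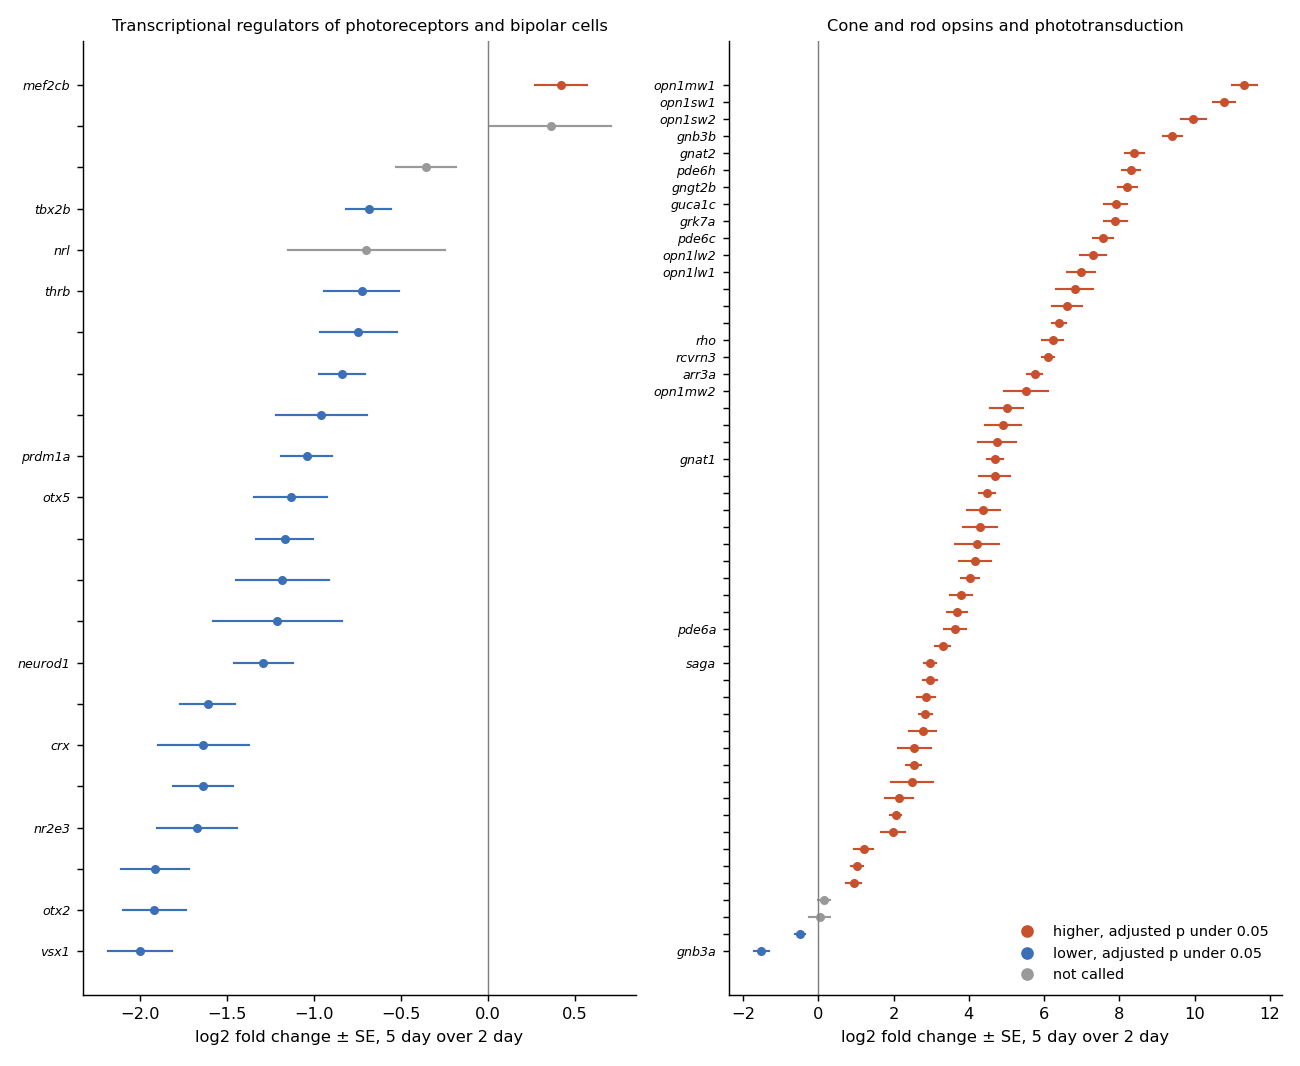
Log2 fold change from 2 day to 5 day with its SE (x axis) for the 22 tested regulators of photoreceptors and bipolar cells (left) and for cone and rod opsins and phototransduction genes (right), with red for higher, blue for lower and grey for not called; genes named in the text are labelled. Of the regulators 18 are called lower, with crx at -1.64 and vsx1 at -2.003, and 40 of the 44 phototransduction genes are called higher.

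The lens is built of fibres that fill with crystallins. The beta crystallin gene cryba1l1 stood at 631, 722 and 583 CPM at 2 day and 761, 691 and 929 CPM at 5 day (0.27 ± 0.14, adjusted p = 0.11), with overlapping groups, and the gamma crystallin gene crygn2 had means of 587 to 700.0 CPM (0.22 ± 0.12, adjusted p = 0.113). Of 51 tested lens genes 7 rose and 6 fell, fewer than the backgrounds of 30.8% and 30.2%, and 5 and 1 moved by 2-fold or more, or 8 and 2 without 2 day replicate 2. Without 5 day replicate 1, 2 fell by 2-fold or more. The 5 that rose by 2-fold or more were the gamma crystallin genes crygn1, crygm2d11, crygm2f, crygm5 and crygmx, of which crygn1 went from 1.25 ± 0.202 to 14.3 ± 3.19 CPM (3.46 ± 0.26). Gamma crystallins are close copies and their separate levels are uncertain. The lens transcription factor hsf4 fell from 16.4 ± 1.46 to 7.83 ± 0.687 CPM (-1.09 ± 0.16). The lens list held 1.775, 1.531 and 1.926% of counts in the 5 day libraries 1 to 3, so replicate 3 was the highest here too, whereas for the exocrine pancreas list, with 3.232, 2.611 and 2.834%, replicate 1 was.

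Several of the 15 largest rises and 15 largest falls lay outside these organs or have no role given in the tables used here. The gene c6ast4, for an astacin metalloprotease of the family of the hatching enzymes, had 2 counts at 2 day and 609.8, 472 and 468 CPM at 5 day, a level 6036-fold (95% counting interval 1671 to 49849) higher. The ammonia channel gene rhcgb, of the ionocytes of skin and gill, had 0 counts at 2 day and 59.6, 54.9 and 62.3 CPM at 5 day, at least 460.4-fold higher. Among the falls, MGC174155 went from 119.7, 331 and 43.4 CPM at 2 day to 0 counts at 5 day and MGC174152 from 136, 219 and 53.3 CPM to 0 counts. The 2 day libraries were uneven for both, and the tables used here give them no role. The embryonic beta globin gene hbbe3 went from 134, 41.6 and 114 CPM to 0 counts, at least 774-fold lower.

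The remaining large falls were of varied function. The fatty acid-binding gene fabp11b fell from 20.6 ± 2.805 to 0.181 ± 0.314 CPM (-6.84 ± 0.45), the water channel gene aqp8b from 21.5 ± 3.42 to 0.542 ± 0.269 CPM (-5.29 ± 0.28) and the zinc transporter gene slc39a5 from 28.2 ± 7.603 to 0.818 ± 0.278 CPM (-5.15 ± 0.30). The extracellular matrix gene emilin3a fell from 34.5 ± 7.28 to 1.398 ± 1.04 CPM (-4.69 ± 0.32). The cytochrome gene cyp2aa3 fell from 33.9 ± 4.898 to 2.504 ± 0.866 CPM (-3.78 ± 0.21), and gpx7, of the glutathione peroxidase family, from 22.02 ± 1.85 to 2.42 ± 0.345 CPM (-3.22 ± 0.18).

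Genes of the cell cycle and of neural progenitors fell almost without exception. All 67 tested genes of the cell cycle and DNA replication fell, 65 of them by 2-fold or more (background 11.2%), with a median of -2.02. The groups did not overlap for any of the 67, which held for 65.9% of all genes tested, in either direction. The replication clamp gene pcna stood at 432, 457 and 359 CPM at 2 day and 136, 115 and 137 CPM at 5 day (-1.71 ± 0.13, adjusted p = 7.57e-07). The ribonucleotide reductase subunit gene rrm2, which supplies building blocks of DNA, fell from 375 ± 49.2 to 66.4 ± 7.62 CPM (-2.53 ± 0.14), and mki67, a marker of cycling cells, from 259 ± 34.5 to 56.1 ± 4.56 CPM (-2.23 ± 0.13). The largest fitted fall of the list was that of the mitotic cyclin ccnb2, from 9.201 ± 0.267 to 1.15 ± 0.21 CPM (-2.99 ± 0.25). Of 30 genes of neural progenitors and Notch signalling 29 fell, 26 by 2-fold or more, with a median of -1.76. The Notch ligand gene dla fell from 95.4, 95.9 and 80.02 CPM at 2 day to 14.6, 18.2 and 24.1 CPM at 5 day (-2.28 ± 0.17), the receptor gene notch1a from 85.6 ± 11.6 to 22.1 ± 6.67 CPM (-1.99 ± 0.19) and the proneural factor neurog1 from 22.1, 20.3 and 18.8 CPM at 2 day to 1.67, 1.59 and 2.04 CPM at 5 day (-3.55 ± 0.19).

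Neural crest and pigment genes were mostly lower at 5 day as well. The crest marker crestin fell from 39.3, 52.2 and 57.4 CPM at 2 day to 9.05, 8.395 and 8.84 CPM at 5 day (-2.53 ± 0.16, adjusted p = 1.54e-07), and of 20 crest genes 16 fell, 10 by 2-fold or more, and 2 rose. Of 11 melanophore genes 10 fell, all by 2-fold or more. The melanosome matrix gene pmelb stood at 90.05, 70.04 and 64.8 CPM at 2 day and 3.62, 3.19 and 5.85 CPM at 5 day (-4.19 ± 0.21), the melanin synthesis gene dct fell from 131 ± 13.6 to 30.8 ± 4.496 CPM (-2.11 ± 0.14) and the melanophore factor mitfa from 6.64 ± 1.504 to 1.41 ± 0.402 CPM (-2.24 ± 0.30). Of 15 genes of yellow and silver pigment cells 5 rose and 7 fell: the pteridine synthesis gene gch2 fell from 255 ± 17.1 to 29.99 ± 8.004 CPM (-3.11 ± 0.19), while xdh, which acts on pteridines and in purine breakdown, rose from 21.4 ± 4.57 to 62.7 ± 4.75 CPM (1.53 ± 0.16). CPM are shares of the RNA of the whole animal, so a lower value does not show a lower amount per animal.

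Of 61 neuron genes 32 rose and 9 fell, 20 and 3 by 2-fold or more, with a median of 0.47. Of 23 genes for making, moving or sensing transmitters 17 rose and 0 fell, while of 38 synapse and axon genes 15 rose and 9 fell (backgrounds 30.8% and 30.2%). The kinase gene camk2a, which acts at synapses, rose from 3.51 ± 0.939 to 29.8 ± 4.75 CPM (3.06 ± 0.20) and the vesicle fusion gene snap25a from 149.8 ± 9.25 to 262 ± 23.3 CPM (0.78 ± 0.12). The gene elavl3, for an RNA-binding protein of young neurons, fell from 464 ± 69.3 to 199.8 ± 4.94 CPM (-1.24 ± 0.13), and stmn2b, a regulator of growing microtubules, from 146 ± 23.1 to 55.2 ± 15.09 CPM (-1.44 ± 0.18).

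Of 32 glial genes 11 rose and 11 fell, and of the 20 myelin and oligodendrocyte genes among them 8 rose and 7 fell, shares near the backgrounds of 30.8% and 30.2%. The myelin basic protein gene mbpa went from 1.02, 0.6 and 0.893 CPM at 2 day to 94.8, 88.9 and 98.6 CPM at 5 day (6.76 ± 0.18) and mag, of the inner myelin surface, rose from 5.17 ± 0.0622 to 33.2 ± 3.28 CPM (2.65 ± 0.15). The proteolipid gene plp1a fell from 76.7 ± 3.498 to 13.1 ± 0.866 CPM (-2.57 ± 0.12), while its paralog plp1b rose from 1.58 ± 0.371 to 25.8 ± 3.23 CPM (3.99 ± 0.21), and the radial glia gene fabp7a fell from 571 ± 51.2 to 156 ± 13.5 CPM (-1.902 ± 0.13). Of 20 peptide and hormone genes of the hypothalamus and pituitary 12 rose and 1 fell. Growth hormone, gh1, stood at 1.79, 1.56 and 1.15 CPM at 2 day and 17.7, 16.05 and 12.5 CPM at 5 day (3.32 ± 0.25), and the means of the other 19 were below 10 CPM at both stages.

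Genes of barrier and ion transport, immunity and muscle moved in different ways. In the skin, 21 of 24 ionocyte genes rose, 19 by 2-fold or more, and 0 fell. The ammonia transporter gene rhcga rose from 0.255, 0.24 and 0.383 CPM at 2 day to 101, 115 and 58.2 CPM at 5 day (8.199 ± 0.40) and the calcium channel gene trpv6 from 10.5 ± 1.83 to 64.2 ± 7.15 CPM (2.59 ± 0.15). Of 36 keratin and envelope genes 17 rose and 9 fell. The gene cyt1l, for a keratin of the embryonic surface layer, fell from 3039.8, 3023 and 2597 CPM at 2 day to 286, 391 and 489 CPM at 5 day (-2.92 ± 0.18). The keratin gene krt5 rose from 1076 ± 113 to 1967 ± 181 CPM (0.84 ± 0.13). In 71 muscle genes 24 rose and 27 fell (backgrounds 30.8% and 30.2%, median -0.12). The actin gene acta1b fell from 3545, 2796 and 2589 CPM at 2 day to 302, 336 and 372 CPM at 5 day (-3.17 ± 0.16), and the smooth muscle actin acta2 rose from 7.92, 4.92 and 4.47 CPM at 2 day to 141, 120.0 and 175 CPM at 5 day (4.62 ± 0.21).

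Of 35 genes of white blood cells and innate immunity 29 rose, 25 by 2-fold or more, and 3 fell, with a median of 1.48. The macrophage gene mpeg1.2 stood at 3.07, 1.92 and 2.55 CPM at 2 day and 144, 104 and 88.2 CPM at 5 day (5.45 ± 0.24). The itaconate-forming gene irg1 (current symbol acod1), which macrophages switch on in infection, rose from 0.713 ± 0.212 to 21.7 ± 3.94 CPM (4.88 ± 0.27), and the cytokine gene il1b from 0.583 ± 0.192 to 5.79 ± 1.52 CPM (3.24 ± 0.38). The neutrophil peroxidase gene mpx rose from 34.2 ± 7.66 to 67.2 ± 13.99 CPM (0.94 ± 0.18), and the recombinase gene rag1 of developing lymphocytes from 0.871 ± 0.424 to 5.697 ± 2.34 CPM (2.64 ± 0.43). The gene cpa5, which stands in this list as a mast cell marker, is also the acinar enzyme given above.

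Globin genes were measured less evenly, and 2 day replicate 2 was low in hbae3, hbbe2 and hbbe3. Red cell genes outside the globins were more even where named. At 2 day rhag stood at 90.7 ± 3.09, ank1a at 206 ± 23.3 and tmod4 at 159 ± 20.1 CPM. Some globin genes were uneven at both stages. The gene hbbe1.1 had means of 321 ± 326 CPM at 2 day and 190 ± 234 CPM at 5 day (adjusted p = 0.441). The gene si:ch211-5k11.12 had means of 420 ± 288 and 299 ± 199 CPM (adjusted p = 0.453). The red cell list held 0.321, 0.1189 and 0.3066% of counts in the 2 day libraries 1 to 3 and 0.2522, 0.1874 and 0.2204% in the 5 day libraries 1 to 3. The embryonic alpha globin gene hbae3 stood at 776, 155 and 681 CPM at 2 day and 483, 293 and 383 CPM at 5 day (-0.51 ± 0.42, adjusted p = 0.32), and without 2 day replicate 2, the low library, its change was -0.96 (adjusted p = 0.00178). The beta globin gene hbbe2 rose from 26.4, 7.196 and 24.5 CPM at 2 day to 87.8, 43.3 and 71.9 CPM at 5 day (1.77 ± 0.37, adjusted p = 0.00135) and by 1.36 without 2 day replicate 2. Of 28 genes tested 7 rose and 3 fell (backgrounds 30.8% and 30.2%).

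Clock genes differed between the stages. Of 36 tested 22 rose and 6 fell, 19 and 4 by 2-fold or more, with a median of 1.12. The repressor gene nr1d1 stood at 2.81, 1.799 and 2.81 CPM at 2 day and 144, 146 and 134 CPM at 5 day (5.81 ± 0.17, adjusted p = 3.21e-10), and the light-induced period gene per2 rose from 33.5 ± 2.79 to 139.7 ± 15.15 CPM (2.03 ± 0.13). The period gene per1a rose from 4.62 ± 0.0468 to 44.2 ± 9.59 CPM (3.23 ± 0.20), and the activator arntl2 fell from 55.2 ± 1 to 12.7 ± 0.833 CPM (-2.15 ± 0.12). These genes cycle over the day, the hour of collection is not given in the labels, and hour and age cannot be told apart here.

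The other wild-type stages place the step. The mean of he1a was 72.8 ± 9.11 CPM at 1 somite, 1358 ± 133 at 25 hpf, 687 ± 209 at 2 day and under 1 CPM at 5, 9 and 14 day. Of the 6 stage means the one at 25 hpf was the highest for he1a, and also for he1b (710.2 CPM), he2 (55.4 CPM) and ctslb (1138 CPM). For he2 the mean was 2.73 CPM at 2 day and 3.65 CPM at 5 day, both far below that at 25 hpf.

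Digestive genes differed in their course after 5 day. The mean of try was 0.698 CPM at 25 hpf and 2820.0 ± 297, 2870.0 ± 427 and 3830.0 ± 700.3 CPM at 5, 9 and 14 day. The amylase gene amy2a had its highest mean at 5 day, with 841 ± 98.5, 330.2 ± 42.99 and 220.0 ± 63.5 CPM at the same stages, and so had cyp3a65, with 589 ± 63.5, 247 ± 52.6 and 216 ± 94.2 CPM. The liver gene fabp10a had its highest mean at 14 day, with 427 ± 47.5, 697 ± 249 and 1131 ± 198 CPM. The bile acid-binding gene fabp6 stood at 145 ± 16.4, 205 ± 23.8 and 235 ± 56.7 CPM.

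The eye genes had their highest means at 5 day or before. The cone opsin opn1sw1 stood at 1739 ± 285, 420.3 ± 111 and 261 ± 125 CPM at 5, 9 and 14 day, and gnat2 at 422 ± 108, 146 ± 43.6 and 119 ± 40.5 CPM. The rod opsin rho stood at 682 ± 279.9, 323 ± 75.2 and 265 ± 164 CPM. The regulator crx had its highest mean at 2 day, with 0.699 CPM at 25 hpf, 111 at 2 day, 36.7 at 5 day and 13.1 at 14 day. The bipolar cell factor vsx1 had the same order, with 4.49, 86.9, 22.2 and 10.4 CPM. The related otx2 was highest at 1 somite, at 157 CPM, with 32.2, 77.8 and 21.04 CPM at 25 hpf, 2 day and 5 day. Changes between the other stages were not tested here.

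**Figure D4:**
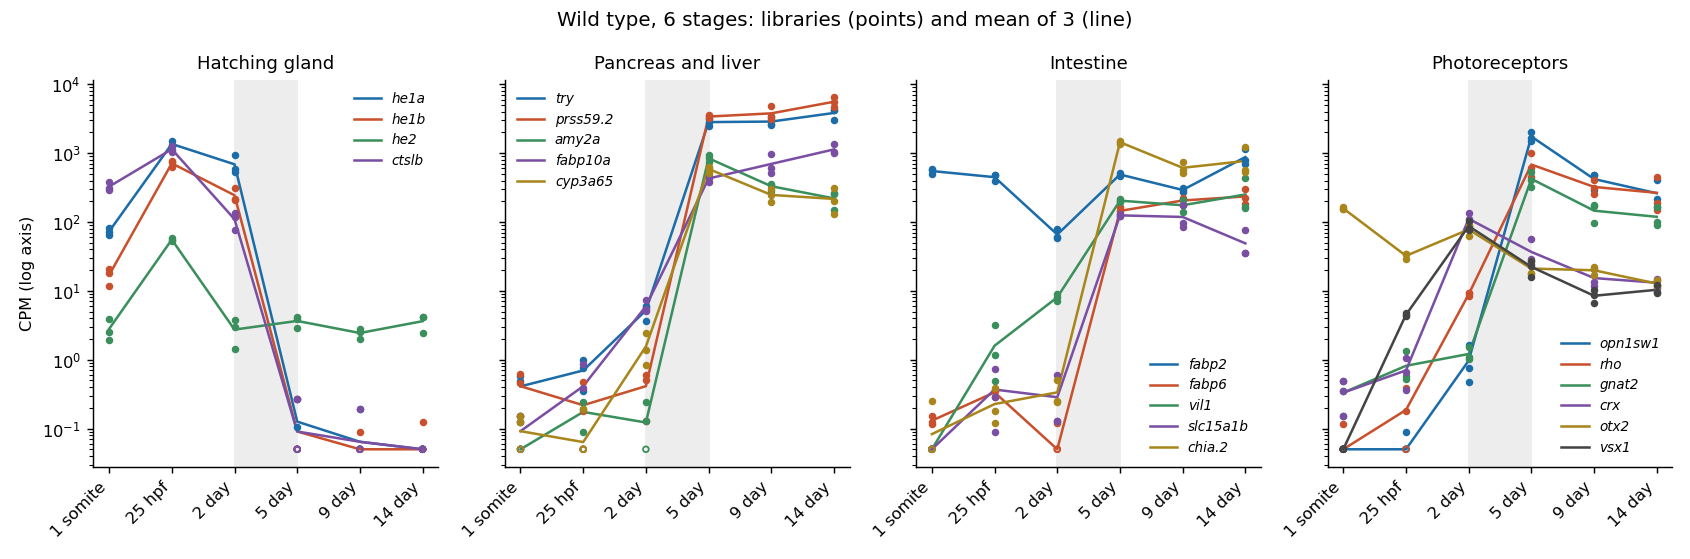
CPM on a log axis in the 18 wild-type libraries at 6 stages (points) with the stage mean (line), values under 0.05 CPM being drawn at 0.05 and libraries with 0 counts as open circles; the grey band marks the step from 2 day to 5 day. The line of he1a drops within the band from 687 to 0.126 CPM, that of try climbs from 5.19 to 2820.0 CPM, and that of crx has its highest mean, 111 CPM, at 2 day.

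The same step was measured in kctd15 mutants, in libraries that the wild-type comparison does not use. The targeted gene has a pair of zebrafish copies, and the labels do not say which was mutated. In CPM scaled over the 12 libraries of both genotypes, kctd15a stood at 54.1, 46.7 and 40.2 in wild type and 146, 174 and 179.8 in mutants at 2 day, and at 15.4, 16.23 and 25.7 and 83, 72.2 and 70.9 at 5 day. The copy kctd15b stood at 9.36, 12.5 and 8.77 and 19.5, 26.6 and 22.9 at 2 day and at 6.295, 6.74 and 7.37 and 11.04, 13.3 and 10.4 at 5 day. Both copies were higher in every mutant library than in every wild-type library of the same stage, and kctd15a fell over the step in wild type (-1.303 ± 0.19).

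In mutants 3508 of 21267 genes tested (16.5%) were higher and 1754 (8.25%) lower by 2-fold or more. At any size, 6100 of the 20778 genes tested in both genotypes rose in mutants and 5622 fell, the background for the list counts below. Of the 6245 genes called by 2-fold or more in wild type and tested in mutants, 5999 (96.1%) had the same direction and 3853 were also called by 2-fold or more the same way. These are 61.7% of the 6245 and 75.8% of the 5085 genes called by 2-fold or more in mutants and tested in wild type. Genes with next to no counts at the same stage in both genotypes could only share their direction, and the 5999 include them. The share with the same direction among all 20778 genes is not given here, so the 96.1% has no background to be set against. In mutants 28 of 31 exocrine pancreas genes rose (median 9.76), 41 of 46 liver enzyme genes (1.85), 50 of 68 intestine genes (1.39) and 41 of 43 phototransduction genes (3.83), and 66 of 67 cell cycle genes fell (-1.39). Exocrine pancreas genes such as ctrl, amy2a and sycn.2 had next to no counts at 2 day in either genotype. They passed the count filter through the later stage alone, which fixed their direction in both. Other lists differed more from their wild-type counts. Of the 22 photoreceptor regulators 11 fell and 3 rose in mutants (median -0.54), beside 18 and 1 in wild type (-1.15), and crx was not called in mutants (-0.52 ± 0.31, adjusted p = 0.17; adjusted p of the difference = 0.175). Mutant 2 day replicate 1 was low in several of them. In the mutant 2 day libraries 1 to 3, crx stood at 34.7, 96.1 and 92.6 CPM and otx5 at 15.6, 40.6 and 47.7 CPM. There vsx1 stood at 45.7, 96.1 and 86.0 CPM and neurod1 at 72.5, 122.7 and 125.3 CPM, whereas mef2cb, at 41.2, 39.5 and 46.1 CPM, did not share this. The part of that library in these counts was not tested. Of 51 lens genes 27 rose and 4 fell in mutants (0.51), beside 7 and 6 in wild type (0.06). Of the 27 that rose 24 were gamma crystallins, whose close copies may exchange estimated counts. In mutants 10 of 32 white blood cell and innate immunity genes rose and 7 fell, beside 29 and 3 of 35 in wild type. Of 13 complement genes 3 rose and 3 fell, beside 9 and 1 in wild type. The fitted log2 fold change of he1a was -11.18 ± 0.47 in mutants beside -12.28 ± 0.40 in wild type, and that of opn1sw1 was 11.64 ± 0.32 beside 10.77 ± 0.29.

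The difference between the genotypes was tested as an interaction in a fit of the 12 libraries, and 1422 of 22343 genes (6.36%) passed, 450 with a more positive change in mutants and 972 with a more negative one. That number depends on single libraries. It was 562, 681 and 2649 without wild-type 2 day replicates 1, 2 and 3, and 683, 657 and 2783 without wild-type 5 day replicates 1, 2 and 3. It was 745 and 907 without mutant 2 day replicates 1 and 3, and 633 and 669 without mutant 5 day replicates 1 and 2. Of the hatching gland list 0 of 14 genes tested in wild type passed, and of the visual opsins 0 of 16. At 2 day he1a stood at 582, 1014 and 660 CPM in wild type and 358, 196 and 195 in mutants. There he1b stood at 234, 339 and 228 and at 58.0, 29.3 and 49.6, and ctslb at 83.3, 147 and 131 and at 32.4, 20.7 and 14.2. The low gene he2 went the other way (3.17, 1.57 and 4.24, and 5.06, 4.57 and 5.42). This 2 day difference was not tested, and near 0 counts at 5 day the interaction says little of such genes. Of the exocrine pancreas list 2 of 31 passed, among them try, which rose by 10.46 ± 0.16 in mutants and 9.05 ± 0.22 in wild type (adjusted p = 0.00697).

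By number, the lists with the most interaction calls were those of the lens, of white blood cells, and of skin and ionocytes. Of their genes tested in wild type, 16 of 51, 13 of 35 and 13 of 60 passed, beside 1398 of all 21458. Shares give another order, with 9 of 26 pigment genes and 9 of 36 clock genes passing. All 16 lens calls were of gamma crystallins, of which 26 were tested. Of 12 alpha or beta crystallins and 13 channel or filament genes 0 passed. Gamma crystallins are close copies that may exchange estimated counts, so the 16 calls are not separate observations. The gene mpeg1.2 rose by 2.49 ± 0.26 in mutants (adjusted p of the difference = 0.00143), its 5 day level being 155, 112 and 93.8 CPM in wild type and 7.46, 9.23 and 9.54 CPM in mutants. In wild type it stood at 22.9 ± 6.11 CPM at 9 day and 14.7 ± 2.05 CPM at 14 day. Over the white blood cell list the median change was 1.48 in wild type and 0.50 in mutants. Of the photoreceptor regulators 5 of 22 passed, and the part in these calls of mutant 2 day replicate 1, low in several of them, was not tested. The change of otx2 was -0.89 ± 0.14 in mutants beside -1.92 ± 0.18 in wild type (adjusted p of the difference = 0.0311), and that of neurod1 -0.17 ± 0.19 beside -1.29 ± 0.17 (adjusted p of the difference = 0.0412). The muscle gene acta1b changed by -1.27 ± 0.09 beside -3.17 ± 0.16 (adjusted p of the difference = 1.48e-05).

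**Figure D5:**
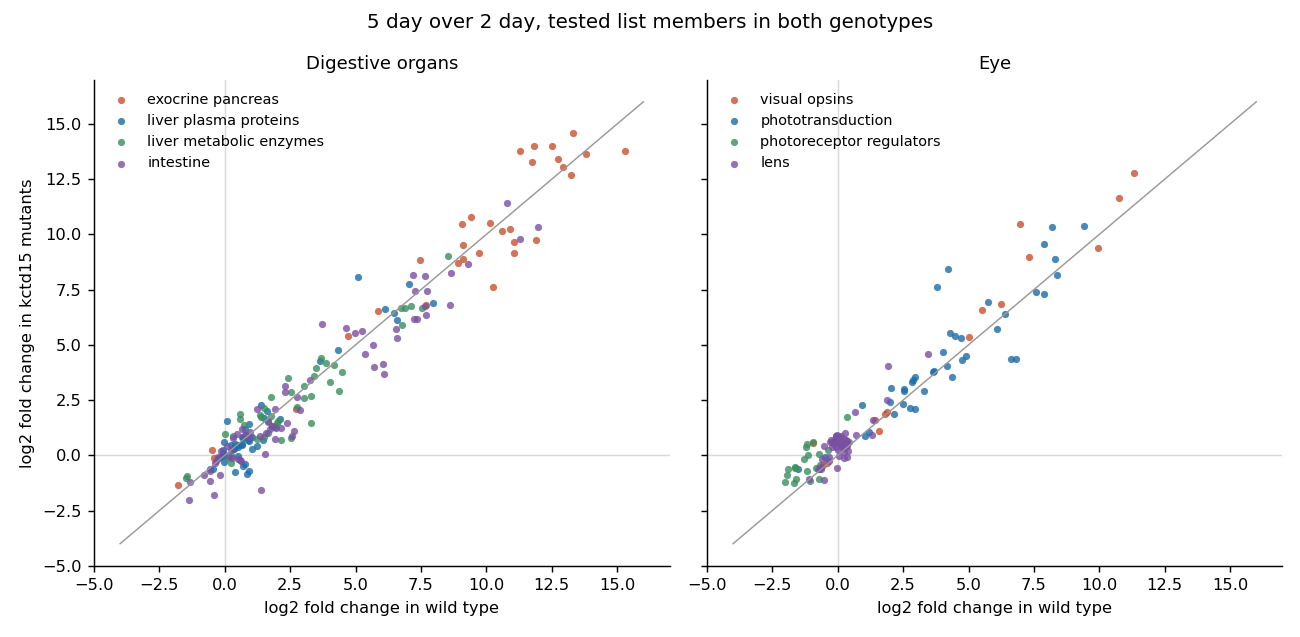
Fitted log2 fold change from 2 day to 5 day in kctd15 mutants (y axis) against that in wild type (x axis) for tested members of digestive organ lists (left) and eye lists (right), 1 point a gene, with the line of equal change in grey; fitted values of genes with 0 to 3 counts in a group depend on the prior count. The exocrine pancreas genes lie at the upper end, with medians of 10.27 in wild type and 9.76 in mutants.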

How the data were processed

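Whole-animal RNA was isolated in TRIzol; 100 ng with an integrity number above 8.0 went into each stranded mRNA library, per the labels' protocols. The values are estimated counts per gene as deposited by the authors, with 1 column for each of 36 libraries. Trimmomatic 0.36, kallisto 0.43.0, edgeR (version not given in the sources used here) and the build GRCz10 are named in the submitters' processing notes. Kallisto divides reads between similar transcripts by estimation, so levels of near-identical copies are uncertain.

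From these, estimated counts were rounded to whole numbers. R 4.3.3 with edgeR 4.0.16 was used: genes were kept by filterByExpr, scaled by TMM and tested by the quasi-likelihood test with Benjamini-Hochberg adjustment at 0.05, on the 3 libraries at 2 day and the 3 at 5 day. The SE is the absolute log2 fold change divided by the square root of F. The mutant step was fitted likewise, and the interaction in 12 libraries. A gene with 0 counts in a group has a lower bound that allows 3 counts over that group, and 1 with 1 to 3 counts has a ratio with an exact 95% counting interval. Those intervals cover counting error only. The fit was checked on simulated data.

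Of 1124 entries in 28 gene lists 1058 matched the table, 46 of them through a synonym, and 975 were tested. The members and lists were chosen with earlier results of these data known. Genes were named by 2 rules: the 15 largest rises and 15 largest falls with at least 20 CPM in the higher group, and, in each list, the 6 genes with the highest mean CPM, a choice that favours long genes and does not rank transcript levels, and the largest change each way. Named genes outside these rules were chosen after their values were seen, and not every gene that met a rule is named. Alternatives were library size only, DESeq2 1.42.0, no filter, a stricter filter of 1 CPM in 3 libraries, fits of 18 or 36 libraries, a replicate block and each library left out. No sequences or coordinates are used here, and results of some list members are not reported here.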

Additional observations from a re-analysis of the deposited data

Results flagged for a closer look

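Of the 206 named genes followed through the settings below, 29 changed differently from 2 day to 5 day in mutants and in wild type by edgeR's interaction test. The gene tfa, not among the 206, also passed (adjusted p = 0.00585), with changes of 1.57 in mutants and 0.07 in wild type. Each value below is the log2 change in mutants minus that in wild type, with the adjusted p over 22343 genes in parentheses. How many genes pass this test depends on single libraries, as given above, and the cause of the differences was not tested.

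The immune genes had more negative changes in mutants, irg1 by -5.51 (5.53e-05), mpeg1.2 by -3.02 (0.00143) and mpx by -1.33 (0.00362). In CPM scaled over both genotypes, irg1 stood at 5 day at 28.2, 21.9 and 19.8 in wild type and 0.466, 1.12 and 0.424 in mutants. The difference was -5.49 (0.000453) for the ammonia transporter gene rhcga, which stood at 0.275, 0.262 and 0.424 in wild type and 5.35, 3.2 and 10.3 in mutants at 2 day and at 109, 124 and 61.9 and 33.6, 36.4 and 47.1 at 5 day. Its level in mutants was thus the higher at 2 day and the lower at 5 day. For fabp11b it was 4.95 (0.000816), with 23.7, 24.5 and 19.2 in wild type and 8.101, 12.3 and 11.5 in mutants at 2 day and 0, 0 and 0.578 and 2.18, 4.198 and 2.33 at 5 day. Fitted values of genes with so few counts in a group, cel.2 among them, depend on the prior count.

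Among muscle genes the difference was 1.84 (1.48e-05) for acta1b, 1.24 (0.0309) for acta2 and 0.88 (0.006) for desma. Among genes of the digestive organs, plasma and blood it was 1.35 (0.00697) for try, 1.05 (0.00391) for vil1, 0.83 (0.0208) for fetub, -2.72 (0.0254) for cel.2, -0.89 (0.0304) for fabp2, -1.56 (0.00854) for apoa4b.2, -1.62 (0.0237) for apoa4b.3, -0.73 (0.0446) for bco1 and -1.57 (0.0431) for hbbe2. Among eye genes it was 2.096 (0.0013) for crygm2d11, 0.995 (0.0185) for rbp4l, 0.97 (0.0311) for otx2, 1.06 (0.0412) for neurod1, 2.07 (0.0433) for gngt2b, 1.11 (0.0497) for arr3a and -0.92 (0.0264) for saga. Among neural, glial and other genes it was 0.72 (0.0109) for fabp7a, 1.16 (0.0211) for mag, 1.02 (0.0244) for stmn2b, 0.91 (0.0316) for nkx2.2a and 1.44 (0.0031) for cyt1l.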

How the results depend on the processing

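With 3 libraries in each group, the numbers of genes higher and lower at 5 day, 6613 and 6470 here, ran from 5959 to 6697 and from 5603 to 6569 when 1 library was left out, and were 6097 and 5691 with DESeq2. Scaled by library size only, 7270 genes were higher and 5544 lower, and the median over all genes moved to 0.116. Without a filter on low counts 7343 were higher and 6328 lower, with a median of 0.124. In the fit of 18 wild-type libraries 7554 were higher and 6555 lower. The background shares thus depend on the setting. Of the 197 named genes that were followed through these settings and passed the test, 193 kept their call in every setting run. The exceptions were gata6, mef2cb, thrb (adjusted p = 0.0514 by library size only) and kctd15b (0.0575 by library size only, 0.0726 with DESeq2, and 0.0632 to 0.109 without 2 day replicate 2 or 5 day replicate 1 or 2). For gata6 it was 0.0669 by library size only and 0.0641 with DESeq2. By library size only, the lens genes cryba1l1 and crygn2 passed (0.016 and 0.0132). None of the 206 named genes followed through these settings changed sign. The named genes hbbe1.1, si:ch211-5k11.12, rhag, ank1a, tmod4, tfa and serpina1 were not followed. Hatching gland genes higher by 2-fold or more numbered 2, not 1, without a filter, with the stricter filter, in the fit of 18 wild-type libraries and in that of 36, and 1 to 2 with a library left out. Visual opsin genes lower by 2-fold or more numbered 0, and 0 to 1 with a library left out. The interaction, with 1422 genes, ran from 562 to 2783. Same-numbered replicates did not deviate together (correlations -0.0935, -0.0559 and -0.284), so the numbers are not taken to pair the samples. With the replicate number as a block, 6132 genes were higher and 5982 lower, and 896 passed the interaction. The causes were not tested. Genes with few counts at 2 day have wide intervals, and depth limits what can be said of them.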

Other observations

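Among 16 smooth muscle and progenitor genes of the muscle list 8 rose and 5 fell, with a median log2 fold change of 0.09. The contractile gene tagln rose from 3.704, 2.88 and 3.19 CPM at 2 day to 38.98, 38.6 and 43.1 CPM at 5 day (3.59 ± 0.15), and the smooth muscle myosin gene myh11a from 9.07, 5.76 and 9.699 CPM at 2 day to 72.2, 67.9 and 70.6 CPM at 5 day (3.08 ± 0.17). The intermediate filament gene desmb rose from 1.2 ± 0.597 to 24.6 ± 0.549 CPM (4.31 ± 0.25), while its paralog desma fell from 340.0 ± 39.9 to 189.5 ± 27.3 CPM (-0.87 ± 0.14). The groups did not overlap for any of these 4 genes. Among 37 fast muscle genes 13 rose and 14 fell (backgrounds 30.8% and 30.2%). The fast troponin T gene tnnt3a fell from 1093, 917 and 1003 CPM at 2 day to 103, 131 and 123 CPM at 5 day (-3.104 ± 0.14). The calcium pump gene atp2a1l rose from 228 ± 29.7 to 1395 ± 112 CPM (2.58 ± 0.14), and its paralog atp2a1 fell from 7379 ± 401 to 5195 ± 125 CPM (-0.53 ± 0.11). Among 18 slow or cardiac muscle genes 3 rose and 8 fell, among them the slow troponin T gene tnnt1, from 51.3 ± 11.5 to 6.602 ± 1.33 CPM (-2.98 ± 0.20).

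Of 37 cartilage and bone genes tested 13 rose and 6 fell (backgrounds 30.8% and 30.2%), with a median of -0.04. The cartilage matrix gene matn1 rose from 30.3, 17.9 and 17.99 CPM at 2 day to 140.2, 150.2 and 208 CPM at 5 day (2.88 ± 0.22), and the bone matrix gene spp1 (osteopontin) from 0.766, 1.08 and 1.02 CPM at 2 day to 22.8, 24.2 and 24.6 CPM at 5 day (4.59 ± 0.20). The collagen gene col10a1a, of bone-forming cells in zebrafish, rose from 149.7 ± 15.8 to 382 ± 30.1 CPM (1.32 ± 0.13). The cartilage factor sox9a fell from 60.9 ± 9.07 to 24.6 ± 4.02 CPM (-1.34 ± 0.15), and the matrix link protein gene hapln1a from 523, 567 and 563 CPM at 2 day to 109, 111 and 114 CPM at 5 day (-2.34 ± 0.11). Of 16 swim bladder and yolk genes 8 rose and 3 fell, with a median of 0.45. In that list the surfactant protein gene sftpba rose from 0.511, 0.48 and 0.383 CPM at 2 day to 3.76, 4.78 and 4.76 CPM at 5 day (3.21 ± 0.36). Of 12 segmentation and mesoderm progenitor genes tested 0 rose and 8 fell, with a median of -0.54, and the other 11 matched genes of that list had too few counts to be tested.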
